A study of Mus musculus with 53 samples.

Results

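Lung tumours that lacked Lkb1 were compared with lung tumours that lacked p53 after 9 weeks of growth, in 18 of the 53 mice of the series. The mice were chosen by their labels: all had received a single lentiviral vector, and each comparison set mice of KLTC genotype against mice of KPTC genotype that had received the same vector. With the inert vector Lenti-sgNeo there were 5 mice labelled KLTC-Neo and 3 labelled KPTC-Neo. With the vector Lenti-sgSetd2#2, which carries sgRNA number 2 against Setd2, there were 7 mice labelled KLTC-Setd2 and 3 labelled KPTC-Setd2. By the usual naming of these strains, all 18 mice carry a reporter that fluoresces after recombination (T) and a Cas9 allele (C), while L and P are alleles that let Cre delete Lkb1 and p53. The vectors brought Cre to the lung epithelium through the trachea, and barcodes were amplified from DNA of whole lungs, so that 1 library was made per mouse. The amount of virus given, the age of the mice and the promoter that drives Cre are not stated by these sources, and no group that keeps both genes was followed at 9 weeks.

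The 2 genes compared here restrain lung tumours by different routes. Lkb1, also named Stk11, is a kinase that activates AMPK, which slows growth when energy is short, and kinases related to AMPK. The transcription factor p53, encoded by Trp53, is switched on by DNA damage and other stress and halts or kills cells, and it is known for holding back the progression of established lung tumours. Setd2 is a histone methyltransferase that marks the bodies of transcribed genes and is a tumour suppressor in the lung. An inert sgRNA such as sgNeo cuts no functional gene of the mouse, so it leaves tumours with the deletions of the genotype.

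Genotype went with the letters that open the mouse names. All KPTC mice of these groups had names that open with IW, and all KLTC mice had names that open with ZR except KLTC-Setd2 replicate 1, whose name opens with IW. No source used here says what the letters mean, so for the inert vector genotype and name prefix cannot be told apart, and for the Setd2 vector a single KLTC mouse shares the prefix of the KPTC mice.

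A tumour is read out here as its barcode. The 21-base barcodes hold 15 variable bases, given in capitals, between 6 positions given in lower case at which over 90% of the listed barcodes of a vector have the same letter. The lower-case letters are those of the barcode shown. In the largest tumours of KPTC-Neo and KPTC-Setd2 some of them differ from those of the other barcodes shown. The barcodes of the largest listed tumour of each group, and the 1 barcode that was listed in every mouse with the Setd2 vector, are shown because the same letters came back in other mice.
KLTC-Neo, largest: aaAAGTCttCGGTCaaGGCTG
KPTC-Neo, largest: aaTTTTGtgTCAATcgAAATG
KLTC-Setd2, largest: aaCTATCttACGGTaaGTAGA
KPTC-Setd2, largest: aaTCTACtgGTGTAatGGAGA
Setd2 vector, most mice: aaGTCCAttACACAaaGGGGG

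The first of these was listed at 2119899 cells in KLTC-Neo replicate 5 and in all 8 mice with the inert vector, as were 15 other barcodes. Its other sizes were 9753, 6192, 4705 and 34010 cells in KLTC-Neo replicates 1 to 4, and 49573, 1869 and 7387 cells in KPTC-Neo replicates 1 to 3. The largest KLTC-Setd2 tumour, of 14953547 cells in replicate 2, shared its barcode with the largest tumour of replicate 1 (549397 cells) and of replicate 5 (30252 cells), and the barcode was listed in 8 of the 10 mice with the Setd2 vector. The largest KPTC-Setd2 tumour, of 4529671 cells in replicate 2, had its barcode in 8 mice as well, among them KLTC-Setd2 replicate 5 at 15149 cells, the second largest size of that mouse. The barcode shown last was listed in all 10 mice, from 787 cells in KLTC-Setd2 replicate 3 to 576099 cells in KLTC-Setd2 replicate 2. The largest KPTC-Neo tumour, of 1784536 cells in replicate 2, was listed in 4 mice, at 41203 cells in KPTC-Neo replicate 1 and at 2849 and 610 cells in KLTC-Neo replicates 4 and 2. Barcodes were therefore shared across genotypes as well as within them.

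In total the 18 mice had 74461 listed tumours of the 409584 in the series. These were 8414 in KLTC-Neo, 8970 in KPTC-Neo, 12738 in KLTC-Setd2 and 44339 in KPTC-Setd2, and each mouse had tumours of 1 target label, that of its vector. Of 10161 distinct barcodes with the inert vector, 32.2% were listed in 2 or more of its 8 mice, and of 39867 with the Setd2 vector, 25.7% in 2 or more of its 10 mice. With the inert vector 2646 barcodes were listed in both genotypes, 47.0% of the 5628 KLTC-Neo and 36.9% of the 7179 KPTC-Neo barcodes. With the Setd2 vector 5606 were, 62.1% of the 9030 KLTC-Setd2 and 15.4% of the 36443 KPTC-Setd2 barcodes. Within a vector both percentages count the same barcodes, so the longer list has the lower percentage. Barcodes also listed in 15-week mice under the same target label made up 32.8% of those with the inert vector and 18.5% of those with the Setd2 vector.

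**Figure D1:**
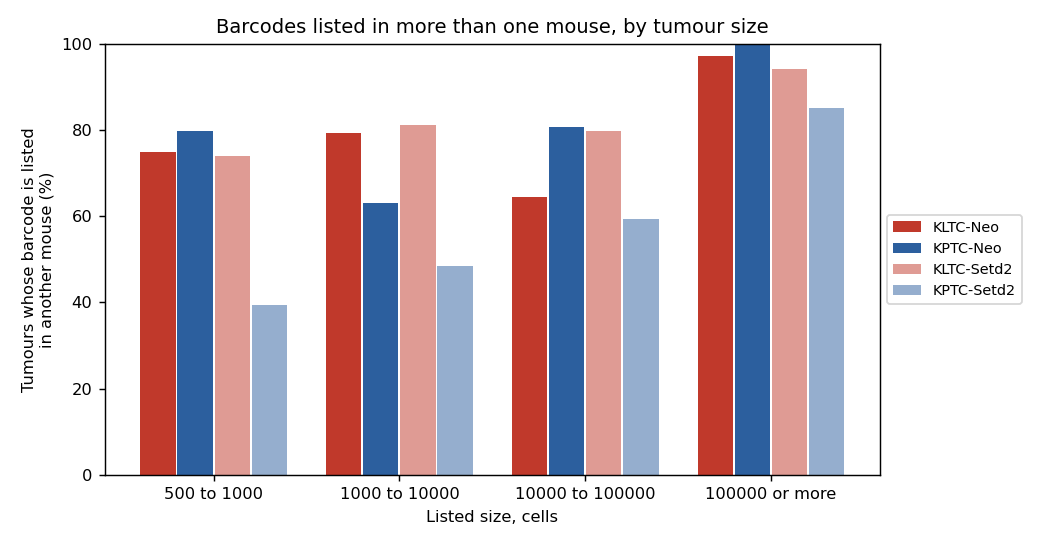
Vertical axis: percent of listed tumours whose barcode came back under the same target in any other mouse of the series. Horizontal axis: size class in cells, with a bar per group and tumours pooled over the mice of a group. At 100000 cells or more the bars stand at 97.3, 100, 94.1 and 85.1%, above those of the same group in each smaller class.

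The largest tumours carried shared barcodes most often. Of tumours of at least 100000 cells, 97.3% in KLTC-Neo (255 tumours), 100% in KPTC-Neo (32), 94.1% in KLTC-Setd2 (1004) and 85.1% in KPTC-Setd2 (886) had their barcode listed in another mouse. These percentages pool the tumours of a group. All 32 of KPTC-Neo came from replicate 2, and 188 of the 255 of KLTC-Neo came from replicate 5. Among the 10 largest tumours of each mouse, a larger tumour with the same barcode was listed in another 9-week mouse for 3 of 50 in KLTC-Neo, 10 of 30 in KPTC-Neo, 17 of 70 in KLTC-Setd2 and 8 of 30 in KPTC-Setd2. These were concentrated in a few libraries. The count was 9 of 10 in KLTC-Setd2 replicate 1, 6 of 10 in KLTC-Setd2 replicate 5, 8 of 10 in KPTC-Setd2 replicate 1 and 5 of 10 in each of KPTC-Neo replicates 1 and 3. In KLTC-Setd2 replicate 1, the mouse of prefix IW, 50.7% of all tumours had a match at least 10-fold larger under the same barcode elsewhere in the series. In 3 mice, all with the Setd2 vector, more than 5 of the 10 largest tumours had a larger listing, of any fold, in another 9-week mouse. Without these 3 mice the log2 differences of KLTC from KPTC with the Setd2 vector were −3.61 for tumour number, 0.28 for the median, 2.17 for the 95th and 0.86 for the 99th percentile, and −21.6 points for the share of cells in the largest 1% of tumours. None of these 5 measures passed after adjustment with all mice. Without the 3 mice none could pass, since the smallest p that the exact permutation test allows there is 0.0952.

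The listed sizes also show how finely each library could measure. Within a mouse, sizes of barcodes with the same number of G and C bases differed by whole multiples of a fixed step, with 100% of sizes on this grid in every mouse (tolerance 0.05 steps). The step is what a count of 1 read would be worth if the authors scaled reads to cells, a step that no source used here describes. It ranged from 26.4 to 162 cells in KLTC-Neo, 18.6 to 603 in KPTC-Neo, 47.0 to 472 in KLTC-Setd2 and 74.3 to 711 in KPTC-Setd2. The ranges of the genotypes overlapped, but the median step was coarser in KPTC with both vectors. It was 67.2 cells in KLTC-Neo against 209 in KPTC-Neo, and 110 in KLTC-Setd2 against 142 in KPTC-Setd2. The smallest listed size was just above 500 cells in mice with fine steps and 2 whole steps in the 4 mice with steps over 250 cells, among them KPTC-Neo replicate 2 (1221 cells) and KPTC-Setd2 replicate 3 (1440 cells). All listed cells of a mouse came to 9987 to 1415657 steps in KLTC-Neo, 25703 to 130386 in KPTC-Neo, 10146 to 3170955 in KLTC-Setd2 and 172726 to 4310767 in KPTC-Setd2. Tumours of fewer than 10 steps were 0 to 75.2% of those of a KLTC-Neo mouse, 0 to 86.6% in KPTC-Neo, 0 to 91.0% in KLTC-Setd2 and 11.3 to 66.6% in KPTC-Setd2. The median over mice was 17.4% in KLTC-Neo against 78.1% in KPTC-Neo, and 25.5% in KLTC-Setd2 against 54.3% in KPTC-Setd2.

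**Figure D2:**
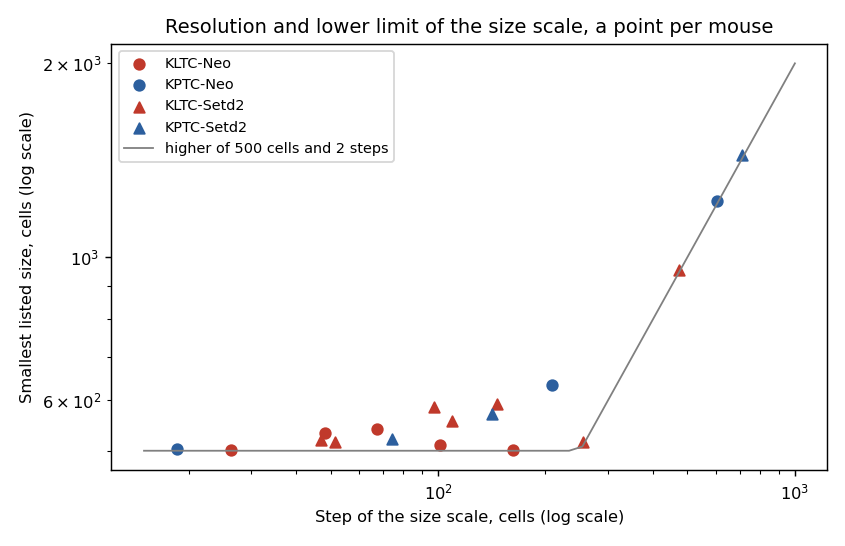
Smallest listed size of each mouse in cells (vertical axis, log scale) against the step of its size scale in cells (horizontal axis, log scale), with a point per mouse and a line at the higher of 500 cells and 2 steps. The 4 mice with steps over 250 cells lie on the rising part of the line, and the other 14 lie on or near its flat part.

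Over both vectors, fewer tumours were listed in Lkb1-deficient than in p53-deficient lungs. With the inert vector, the KLTC mice had 1618, 2366, 1131, 2962 and 337 listed tumours and the KPTC mice had 2625, 4427 and 1918. The groups overlapped, and 3 of the 5 KLTC mice lay below every KPTC mouse. The log2 difference of KLTC from KPTC was −1.07 ± 0.65 (SE, 5 against 3 mice), with adjusted p 0.536 by two-sided exact permutation test. Under the Setd2 vector, the KLTC mice had from 462 to 3332 listed tumours with a median of 1813, and the KPTC mice had 7905, 28853 and 7581. The groups did not overlap, and every KLTC mouse lay below every KPTC mouse, including the KLTC mouse of prefix IW, which had the most (3332). The log2 difference was −3.00 ± 0.74 (SE, 7 against 3), or 7.98-fold more tumours in KPTC, with p 0.0167 by two-sided exact permutation test, the smallest that 7 against 3 mice allow. After adjustment over the 5 main measures it was 0.0833 and did not pass the threshold of 0.05. No measure alone at this smallest p could pass that adjustment.

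**Figure D3:**
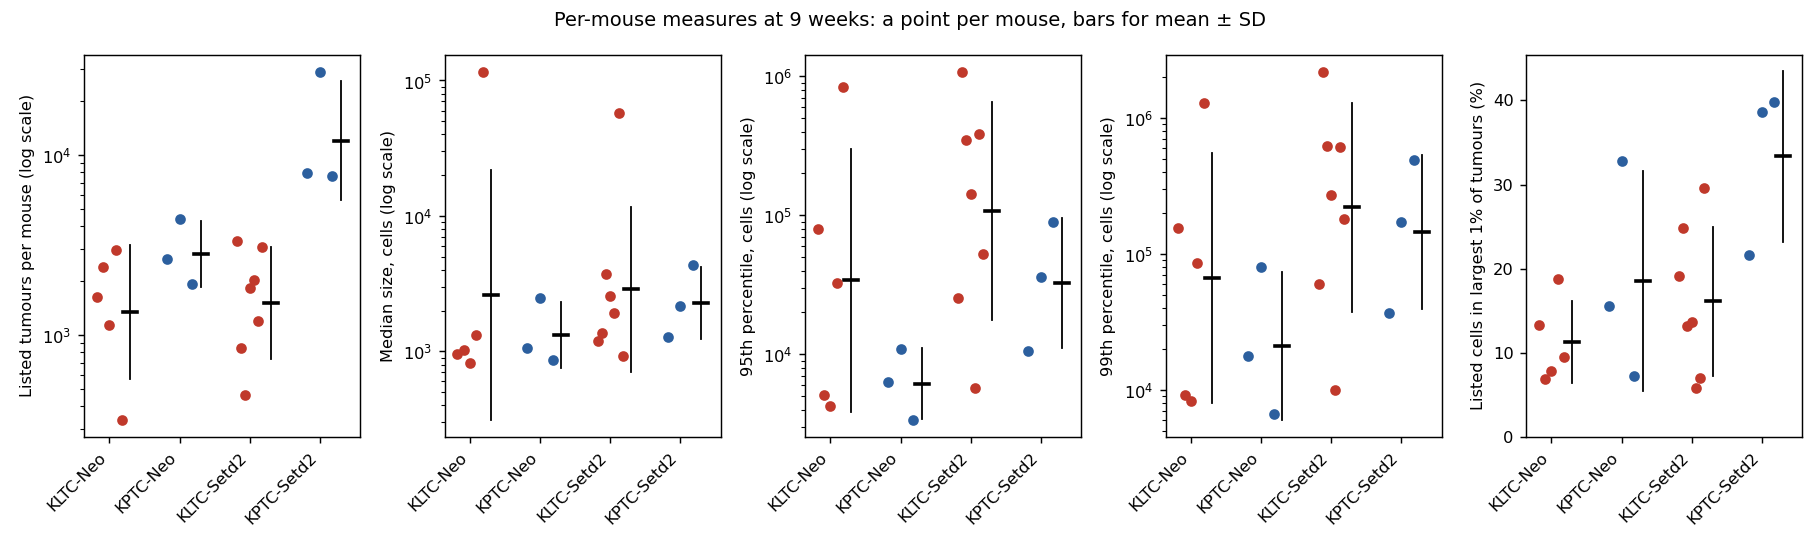
Number of listed tumours, median size, 95th and 99th percentile of size (log scales) and percent of listed cells in the largest 1% of tumours (vertical axes), by group (horizontal axes), where points are single mice and bars show mean and SD, taken on the log2 scale in the log panels. KPTC-Setd2 mice lie above all KLTC-Setd2 mice in tumour number only, and the KLTC points spread over a wider range of sizes than the KPTC points.

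Over both vectors, with genotype relabelled within each vector, tumour number was 4.09-fold lower in KLTC (log2 −2.03 ± 0.49 SE, adjusted p 0.00744, two-sided exact permutation test). The call held when any single mouse was left out (−2.20 to −1.72, adjusted p 0.00476 to 0.0248) and without the 3 mice whose largest tumours mostly matched larger ones elsewhere (−2.34, exact adjusted p 0.0425, range over alternatives 0.00744 to 0.575). It ended when only larger tumours were counted: at a minimum of 5000 cells the difference was −1.26 (adjusted p 0.257) and at 10000 cells −0.72 (exact permutation p 0.575, with no other measure run there). It also ended without barcodes listed in any other mouse, where the difference was −2.56 (exact adjusted p 0.0595). That setting left from 29 tumours in a mouse (KLTC-Neo replicate 5) to 17879 (KPTC-Setd2 replicate 2). The difference did not pass as depending on the vector (log2 −1.93 ± 0.99, adjusted p 0.703, exact permutation of vector within genotype), and 0 of the 5 measures did in that test. No source used here gives how many cells were transduced in each mouse, so the number of tumours and the dose of virus cannot be told apart.

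Once only larger tumours were counted, KLTC mice with the inert vector had more of them on average, by less than the spread between mice. At 10000 cells or more, the KLTC-Neo mice had 431, 18, 7, 543 and 276 tumours and the KPTC-Neo mice 65, 252 and 5, so that 3 KLTC mice lay above every KPTC mouse and the log2 difference, with 1 added to each number, was 1.10 ± 2.02 (SE, exact permutation p 0.607 before adjustment). At 100000 cells or more, KLTC-Neo mice had 43, 0, 0, 24 and 188 and KPTC-Neo mice 0, 32 and 0. Among mice with the Setd2 vector, KPTC mice had more tumours on average at 10000 cells or more, with 411, 4122 and 1829 against 20 to 788 (median 266) in KLTC, and 5 of the 7 KLTC mice lay below every KPTC mouse. The log2 difference was −2.58 ± 1.17 (SE, exact permutation p 0.050 before and 0.689 after adjustment). At 100000 cells or more the groups overlapped, with 11, 530 and 345 tumours in KPTC and 0 to 460 (median 97) in KLTC. Of 16 further measures of number and size in each vector, 0 passed after adjustment and 0 had an unadjusted p under 0.05 by two-sided exact permutation test. The smallest p this test allows is 0.0357 with the inert and 0.0167 with the Setd2 vector. No measure alone at that p could pass the adjustment over 16.

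**Figure D4:**
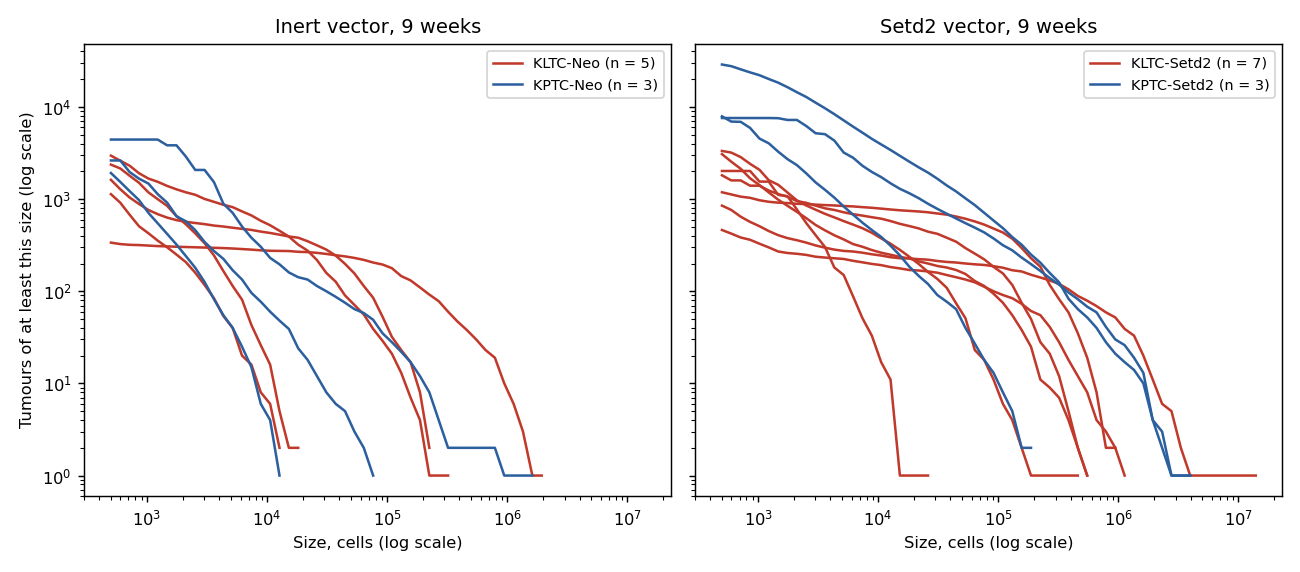
Number of tumours of at least a given size in a mouse (vertical axis, log scale) against that size in cells (horizontal axis, log scale), with a line per mouse, for the inert vector and the Setd2 vector at 9 weeks. The lines of KLTC-Neo replicate 5 and KLTC-Setd2 replicate 6 fall least up to 10000 cells, with 81.9 and 66.4% of their tumours at that size or above, while the other KLTC mice have 0.619 to 42.4% there and the KPTC mice 0.261 to 24.1%.

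The median size of listed tumours did not pass its test in any comparison, and its difference depended on the smallest size counted. With the inert vector, the median size was 951, 1018, 825, 1328 and 115533 cells in the KLTC mice and 1065, 2476 and 857 cells in the KPTC mice. In 4 of the 5 KLTC mice the median lay within or below the range of the KPTC mice, and in KLTC-Neo replicate 5, the mouse with 337 tumours, it was far above all of them. The log2 difference was 0.99 ± 1.45 (SE, adjusted p 0.964, two-sided exact permutation test), and it was −0.37 without KLTC-Neo replicate 5. For the Setd2 vector, medians ran from 931 to 57841 cells (median over mice 1926) in KLTC and were 1285, 2159 and 4342 cells in KPTC. The difference was 0.33 ± 0.92 (SE, adjusted p 0.933, exact permutation test), and it turned to −0.40 without KLTC-Setd2 replicate 6, the mouse with the highest median, and to −0.091 without KPTC-Setd2 replicate 1. Most medians lay within a few multiples of the smallest listed size of their mouse, so they depend on where the list of a mouse begins. With a minimum of 1500 cells in every mouse, above the smallest listed size of each, the median was higher in KLTC by 2.02 with the inert vector and 1.93 with the Setd2 vector (log2). Over both vectors the difference was 0.66 with all listed tumours (adjusted p 0.754, exact permutation test). It was 1.67 at a minimum of 1000 cells, 1.98 at 1500 cells (exact p 0.0414 before and 0.0689 after adjustment) and 1.73 at 5000 cells (exact p 0.0247 before and 0.0618 after adjustment). Without KLTC-Neo replicate 5 and with all listed tumours it was −0.023.

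Upper percentiles were higher in the Lkb1-deficient group means, with a spread between KLTC mice that was larger than the difference. The 95th percentile with the inert vector was 79268, 5047, 4219, 32786 and 833354 cells in the KLTC mice and 6291, 10912 and 3371 cells in the KPTC mice. Thus 3 KLTC mice stood above every KPTC mouse and the other 2 lay inside the KPTC range. The log2 difference was 2.47 ± 1.49 (SE, adjusted p 0.536, two-sided exact permutation test), with SDs of 3.14 in KLTC and 0.85 in KPTC. It was 1.32 without KLTC-Neo replicate 5, and 1.32 to 3.23 when any single mouse was left out. For the Setd2 vector the 95th percentile ran from 5712 to 1072987 cells (median 142737) in KLTC and was 10486, 36149 and 89662 cells in KPTC, a log2 difference of 1.72 ± 1.33 (SE, adjusted p 0.556, same test). There 4 of 7 KLTC mice lay above every KPTC mouse and 1, replicate 5, below them all. Without barcodes listed in any other mouse the difference with the Setd2 vector turned to −0.34, and that over both vectors was 0.67. That setting took out 69.4 to 86.9% of the tumours of a KLTC-Setd2 mouse and 38.0 to 76.3% in KPTC-Setd2. Of tumours of at least 100000 cells it took out 94.1% in KLTC-Setd2 and 85.1% in KPTC-Setd2. It left 64 tumours in KLTC-Setd2 replicate 3. With all listed tumours, the mouse of prefix IW had a 95th percentile of 25359 cells, inside the KPTC range. Over both vectors the difference was 2.10 ± 0.998 (SE, adjusted p 0.163, exact permutation test), a mean 4.28-fold higher 95th percentile in KLTC that did not pass. Without the 3 mice whose largest tumours mostly matched larger ones it was 2.32 (exact p 0.0425 before and 0.0709 after adjustment).

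The 99th percentile was closer between the genotypes. With the inert vector it was 155172, 9130, 8261, 85391 and 1275365 cells in KLTC and 17584, 79663 and 6651 cells in KPTC, a log2 difference of 1.65 ± 1.71 (SE, adjusted p 0.536, two-sided exact permutation test). With the Setd2 vector it ran from 9964 to 2161170 cells (median 272080) in KLTC and was 36666, 171123 and 487775 cells in KPTC, a difference of 0.59 ± 1.45 (SE, adjusted p 0.875, same test) that turned to −0.40 without KPTC-Setd2 replicate 1 and to −0.71 without barcodes listed in any other mouse. Leaving out single mice gave 0.59 to 2.61 with the inert vector, the lowest without KLTC-Neo replicate 5. The groups overlapped with both vectors, and over both the difference was 1.12 ± 1.12 (adjusted p 0.479, exact permutation test).

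**Figure D5:**
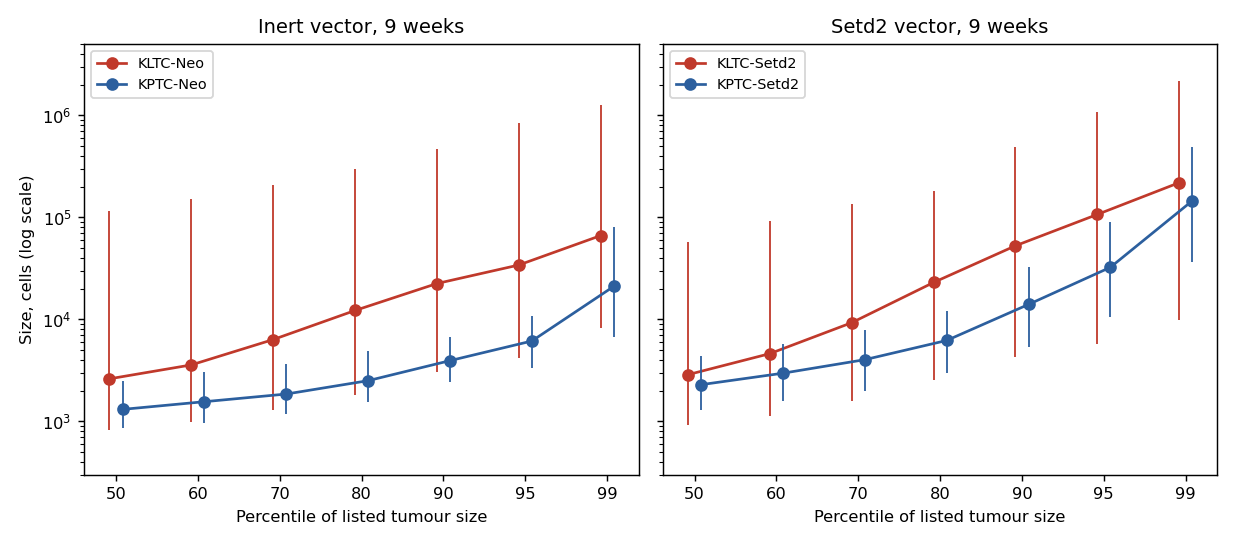
Geometric mean over mice of each percentile of listed tumour size in cells (vertical axis, log scale) against the percentile (horizontal axis), with lines down to the lowest and up to the highest mouse of a group. The KLTC means stand above the KPTC means at every percentile shown, by 1.99-fold at the median, 5.70-fold at the 90th and 3.15-fold at the 99th percentile with the inert vector, and the ranges of the mice overlap at each; without KLTC-Neo replicate 5 the log2 difference at the median is −0.37.

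Along the size distribution, the fold of KLTC over KPTC group means widened and then narrowed. With the inert vector it was 1.99 at the median, 3.42 at the 70th percentile, 4.87 at the 80th, 5.70 at the 90th, 5.55 at the 95th and 3.15 at the 99th. With the Setd2 vector it was 1.25 at the median, 2.30 at the 70th percentile, 3.70 at the 80th, 3.76 at the 90th, 3.30 at the 95th and 1.51 at the 99th. For the largest tumour of a mouse it was 1.08 with the inert vector and 0.442 with the Setd2 vector. The level of the folds with the inert vector rested largely on KLTC-Neo replicate 5. Without that mouse the log2 differences were −0.37 at the median, 1.32 at the 95th and 0.59 at the 99th percentile. Among these percentiles the difference was highest at the 95th with and without it. None of these folds passed its test, and the percentiles of a mouse are not independent of each other.

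For a given list of tumours, ratios of sizes within a mouse are the same whatever single factor scales its reads to cells. Which tumours reach the lower limit of the list can itself depend on that factor, and the percentiles depend on where the list begins. The ratios were looked at after the sizes had been seen and are given with no test. The 99th over the 90th percentile was 2.96, 2.46, 2.68, 4.23 and 2.71 in the KLTC-Neo mice and 4.65, 11.9 and 2.75 in the KPTC-Neo mice. With the Setd2 vector it was 2.27 to 25.6 (median 2.96) in KLTC and 6.80, 10.97 and 14.9 in KPTC, with 6 of 7 KLTC mice below every KPTC mouse and replicate 7 above them all. The 99th percentile thus stood closer to the 90th in most KLTC mice than in the KPTC mice with the Setd2 vector, while the groups overlapped with the inert vector. The 80th percentile over the median was 26.2, 2.32, 2.18, 6.49 and 2.60 in KLTC-Neo and 1.98, 1.96 and 1.79 in KPTC-Neo. With the inert vector every KLTC mouse thus lay above every KPTC mouse. With the Setd2 vector it was 1.72 to 91.3 (median 3.34) in KLTC and 2.32 to 3.07 in KPTC, and the groups overlapped.

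Over both vectors, the largest 1% of tumours held a smaller share of the listed cells in Lkb1-deficient lungs, a difference that rested on few mice. With the inert vector, the largest 1% of tumours held 13.3, 6.97, 7.86, 18.8 and 9.53% of the listed cells of the KLTC mice and 15.6, 32.8 and 7.26% of those of the KPTC mice. All KLTC values but 1, that of replicate 2, lay within the KPTC range, and the difference was −7.26 ± 7.84 percentage points (SE, adjusted p 0.536, two-sided exact permutation test). It was −0.116 points without KPTC-Neo replicate 2, and −12.9 to −0.116 when any single mouse was left out. With the Setd2 vector it was 5.80 to 29.6% (median 13.6%) in KLTC and 21.7, 38.6 and 39.9% in KPTC. There 5 of 7 KLTC mice lay below every KPTC mouse, and the difference was −17.2 ± 6.75 points (SE, p 0.050 before and 0.125 after adjustment, exact permutation test). The mouse of prefix IW had 19.1%, below the 3 KPTC mice of that prefix.

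Over both vectors the share was lower in KLTC by −12.2 ± 5.17 points (SE, adjusted p 0.0499, two-sided exact permutation test), just past the threshold. With only KLTC mice of prefix ZR, which leaves out KLTC-Setd2 replicate 1 alone, it was −12.5 points and did not pass (exact adjusted p 0.0595). The call was lost when any of 13 of the 18 mice was left out, and that mouse is among the 13. The 5 mice whose loss left the call in place were KLTC-Neo replicate 4, KLTC-Setd2 replicates 2 and 7, KPTC-Neo replicate 3 and KPTC-Setd2 replicate 1. Over all 18 the values ran from −15.2 to −8.67 points, the latter without KPTC-Neo replicate 2 (exact adjusted p 0.149). It was also lost at a minimum of 5000 cells (−9.32 points, exact adjusted p 0.0618, range over alternatives 0.0208 to 0.811) and without barcodes listed in any other mouse (−3.32 points, adjusted p 0.811). The setting without such barcodes took out 85.1% or more of the tumours of at least 100000 cells in each group. Without the 3 mice whose largest tumours matched larger ones elsewhere the share difference was −14.4 points (exact adjusted p 0.0468).

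Counted as the single largest tumour or the largest 10 tumours, the shares followed no common direction. The largest tumour held 0.520 to 3.11% of listed cells in KLTC-Neo and 0.584 to 6.69% in KPTC-Neo, and 0.632 to 10.03% in KLTC-Setd2 and 0.881 to 2.17% in KPTC-Setd2. The largest 10 tumours held 19.1% of the listed cells in KLTC-Neo replicate 5, and 26.3% in KLTC-Setd2 replicate 2, the highest values of their vectors. These shares rest on a fixed number of tumours and so also reflect how many tumours a mouse has.

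Listed cells in total did not separate the genotypes. KLTC-Neo mice had 24255165, 4057825, 1614826, 22252624 and 68118796 listed cells and KPTC-Neo mice 5374025, 26694123 and 2425324. KLTC-Setd2 mice had 4790115 to 149014502 listed cells with a median of 32503354, and KPTC-Setd2 mice 24448731, 320308481 and 203132111. The log2 differences were 0.76 ± 1.41 and −1.73 ± 1.31 (SE), with exact permutation p of 0.714 and 0.167 before adjustment. In KLTC-Neo replicate 5, tumours of at least 100000 cells were 55.8% of all tumours and held 93.0% of its listed cells, the highest share of any of the 8 mice with the inert vector, while KPTC-Neo replicate 2 had 0.723% of its tumours and 28.6% of its cells in that class.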

How the data were processed

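Barcodes were amplified from whole-lung DNA and sequenced, per the labels' protocols. The deposited table gives a size signal in cells per tumour, scaled by the authors; the grouping of reads into barcodes, the scaling and the lower limit are not stated by these sources. Mice were grouped by the genotype label, and the mouse was the replicate. The alleles that all groups share are given in part, and the rest is not reported here. All listed tumours were used. The main measures were tumour number, median, 95th and 99th percentile (log2) and percent of cells in the largest 1% of tumours. Differences in means, KLTC minus KPTC, were tested by two-sided exact permutation (56 relabellings with the inert vector, 120 with the Setd2 vector, 6720 over both, 15840 for the dependence on vector), Benjamini-Hochberg adjusted over the 5 measures of each comparison at 0.05. The smallest p with the inert vector is 0.0357. The 16 further measures were adjusted separately; counts past a size used log2(number + 1). Reads per mouse are not in the table, so no counting intervals were computed. Members, measures and tests were chosen with earlier results of these data known. Barcodes printed were chosen by a fixed rule: the largest tumour of each group and the barcode in the most mice of a vector (among 16 that tied with the inert vector, the one with the most cells in sum); no gene was picked by its values. The sequences of the sgRNAs are not used here. Alternatives were minimum sizes, leaving out matched barcodes, the largest tumours or single mice, an exact Mann-Whitney test, and 3 added after the data were seen: a 10000-cell minimum, only the largest listing of a barcode, and leaving out 3 mice. Each mouse listed 1 target, so the alternative with all targets had nothing to add. The permutation code was tested on simulated data (Python 3.11.15, numpy 2.4.6, scipy 1.17.1, pandas 2.3.3).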

Additional observations from a re-analysis of the deposited data

Results flagged for a closer look

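In the 5 KLTC-Neo and 7 KLTC-Setd2 mice, the highest or lowest mouse stood apart from the others by Dixon's test in 8 of 42 sets of per-mouse values, where chance flags about 1 in 20. The sets of a group share their mice and are not independent. The rate of 1 in 20 also assumes normal values, which numbers of tumours that are 0 in most mice of a group are not. KLTC-Neo replicate 5 stood apart as the highest for the median (115533 cells), the 60th percentile (150730 cells), the 70th percentile (208394 cells) and the number of tumours of at least 1000000 cells (9, against 0 in the other 4 mice). It also had the fewest tumours of its group (337), and 89.0% of them had their barcode listed in another 9-week mouse. KLTC-Setd2 replicate 6 stood apart as the highest for the median (57841 cells). KLTC-Setd2 replicate 2 did so for the number of tumours of at least 1000000 cells (50) and for the share of listed cells in its largest tumour (10.03%). KLTC-Setd2 replicate 5 stood apart as the lowest for tumours of at least 10000 cells (20), and it had the coarsest step of its group (472 cells) and 10146 steps in all.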

How the results depend on the processing

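The values below are log2 differences, or percentage points for the share of cells in the largest 1% of tumours, of KLTC from KPTC. Minimum sizes of 1000 and 1500 cells, leaving out 10-fold matches in any mouse or in a 9-week mouse, leaving out the largest tumour of each mouse, and keeping only the largest listing of a barcode changed no direction and no call among the 5 measures of the 4 comparisons, and neither did leaving out 3 mice together in the 3 comparisons that use the Setd2 vector. The median difference over both vectors moved from 0.66 to 1.67 at 1000 and 1.98 at 1500 cells, without passing. At a minimum of 5000 cells, tumour number turned to 0.38 with the inert vector and weakened to −1.26 over both vectors, the share weakened to −9.32, the 99th percentile turned to −0.050 with the Setd2 vector, and the dependence of the median on the vector turned to 0.68. At 10000 cells, tumour number was 1.14 with the inert vector and −0.72 over both, and the 99th percentile with the Setd2 vector was −0.44; with the inert vector and over both, percentiles and shares were not run there, since a mouse had under 10 tumours. Without barcodes listed in any other mouse, the Setd2 vector gave −0.19 for the median, −0.34 for the 95th and −0.71 for the 99th percentile, and over both vectors tumour number was −2.56 and the share −3.32. That setting left 29 tumours in KLTC-Neo replicate 5 and 64 in KLTC-Setd2 replicate 3, against 17879 in KPTC-Setd2 replicate 2. With ZR mice only in KLTC, which is the same as leaving out KLTC-Setd2 replicate 1, the share over both vectors was −12.5 and no longer passed (exact permutation adjusted p 0.0595). By exact Mann-Whitney test the median shifts were −0.056 with the inert and −0.16 with the Setd2 vector. The cause of these changes was not tested.

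Leaving out 1 mouse at a time gave −0.37 to 1.45 for the median with the inert vector, −0.40 to 0.79 with the Setd2 vector and −0.023 to 0.89 over both, −0.40 to 1.46 for the 99th percentile with the Setd2 vector, and −15.2 to −8.67 for the share over both. The dependence on the vector ran from −1.39 to 0.70 for the median, −1.57 to 0.40 for the 95th and −2.06 to 0.0033 for the 99th percentile. Without 1 mouse, no test within the inert vector can go below p 0.05 (smallest exact permutation p 0.0571). Nor can a test within the Setd2 vector without the 3 mice left out together (smallest exact permutation p 0.0952). No paired analysis was possible, since the genotypes are different animals and the labels pair none of them. The labels also give no replicate numbers, and those used here follow the order of the samples in a group. Steps of up to 711 cells limit what could be measured of small tumours.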
